A study of Mus musculus with 19 samples.

Results

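The DNA replication genes described here are 49 genes, fixed as a list by name, that encode the origin, helicase, polymerase, nucleotide supply and E2F components of chromosome copying. All 49 were found among the 18607 genes of the deposited mouse RNA-seq table. They were followed across 19 bulk libraries of sorted bone marrow progenitors: 7 of all-lymphoid progenitors (ALP), 7 of early innate lymphoid progenitors (EILP) and 5 of innate lymphoid cell precursors (ILCp). The 3 populations lie along the route from lymphoid progenitors to innate lymphoid cells, the tissue-resident lymphocytes that carry no rearranged antigen receptor.

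All mice were C57BL/6. Every ALP and EILP library and ILCp 1 to 3 came from Tcf7EGFP/+ mice, in which 1 allele of the gene for TCF-1 carries a green fluorescent reporter, so these controls and compared groups alike are heterozygous at Tcf7. ILCp 4 and 5 came from Plzf-cre-GFP/+ mice, whose reporter follows PLZF, the product of Zbtb16. ALP were gated as lineage-low, Ly-6D-low, Kit-positive, IL-7Rα-positive and Flt3-high. EILP were lineage-low, Ly-6D-low, CD122-low, Kit-positive, GFP-high and Thy-1.2-low, and their IL-7Rα was gated from low to intermediate. ILCp shared the lineage, Ly-6D, CD122, Kit and GFP gates of EILP and were Thy-1.2-positive, IL-7Rα-high and α4β7-positive. No gate used a replication gene. No label gives the age of the mice. The labels give bone marrow as the tissue, while the protocol also names thymus suspensions. Whether replicates are different mice is not labelled, and a p-value here weighs a change only against the scatter of these libraries, which may be technical. The libraries were made in 5 batches as labelled: ILCp 3, 4 and 5 share batch 4, and batch 3 holds only EILP 3 and 4.

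A cell copies its DNA once per division. Before S phase the origin recognition complex, Cdc6 and Cdt1 load the MCM2-7 ring onto DNA, and Cdc45 and the GINS complex then join it to form the active helicase. Polymerases alpha, epsilon and delta, the PCNA clamp and its RFC loader build the new strands from deoxynucleotides, and E2F transcription factors, held in check by the retinoblastoma proteins, drive many of these genes. Progenitors in the bone marrow are known to divide while they choose a lineage.

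Values are the authors' log2 CPM, where a count is scaled to its library's total. Batch means had been taken out of them with groups kept, and levels, overlaps and scatter below are of these adjusted values. The files hold no raw counts, so the depth behind each value is unknown. A level below is a log2 CPM value, and a difference between groups is a log2 change with its standard error (SE) from limma, fitted over all 18607 genes with group and batch as terms. A gene was called when its Benjamini-Hochberg adjusted p over all genes was below 0.05. The 3 comparisons share their groups in pairs and are therefore not independent of each other. In bulk libraries, fewer cells copying DNA and less of a transcript in each cell cannot be told apart.

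Stage markers differed between the labelled groups. Of 11 stage markers, 9 were called higher and 1 lower (Il7r) in EILP than in ALP. In ILCp against ALP 10 were higher and 1 lower (Flt3). The list includes genes of the sort gates and reporters, among them Tcf7, Il7r, Flt3, Kit and Thy1, so it is no separate test of identity. The mean correlation of a library with the others of its group ran from 0.809 for ILCp 2 to 0.894 for EILP 4. Batch means had been taken out with groups kept, and batch 3 holds only EILP 3 and EILP 4. That centres these libraries on the EILP mean, so their correlations are no test of identity. Transcripts of other cells moved with the groups. The summed level of 9 neutrophil markers had a median of 10.49 (8.94 to 12.39) log2 CPM in ALP, 12.59 (10.66 to 15.33) in EILP and 8.53 (6.48 to 10.58) in ILCp, and 2 of the 9 were called lower in ILCp than in EILP. For 7 stroma markers the median was 0.17 (-0.30 to 3.23) in ALP, 7.41 (1.64 to 10.47) in EILP and 1.799 (-1.90 to 2.82) in ILCp, with 2 of 7 called higher in EILP than in ALP and 2 lower in ILCp than in EILP. Sums of 7 dendritic cell markers were 9.07 to 9.34 in ALP, 7.58 to 8.23 in EILP and 8.08 to 8.91 in ILCp. From ALP to ILCp 4 of these were called lower (Siglech, Bst2, Tcf4 and Itgax) and 1 higher (Xcr1, by 10.02, limma adjusted p 0.000548), and from ALP to EILP 3 were lower. Sums of 7 B cell markers overlapped between ALP (6.37 to 7.99) and EILP (5.73 to 6.59) and stood at 4.76 to 5.83 in ILCp, where Ebf1 and Cd79b were called lower than in ALP. Sums of 7 T cell markers overlapped between all groups (-0.49 to 4.82, 0.70 to 4.67 and 0.72 to 5.30), with Cd3d and Cd3g called higher in ILCp than in ALP. Of 8 erythroid markers limma called 0 in each comparison, with 3, 0 and 0 at an unadjusted p below 0.05 in EILP against ALP, ILCp against EILP and ILCp against ALP. All 8 erythroid changes were positive in EILP and in ILCp against ALP (medians 2.98 and 2.08), and the sums overlapped at 0.08 to 8.01 in ALP, 4.51 to 10.03 in EILP and 5.16 to 10.3 in ILCp. The part of these cells in the results below was not tested.

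Replication transcripts were lowest in ILCp. In each library the level of every member was set against that gene's mean over all 19 libraries, and the median over the 49 members was taken. That median was 0.26 ± 0.11 (SD, n = 7) in ALP, 0.02 ± 0.11 (n = 7) in EILP and -0.35 ± 0.08 (n = 5) in ILCp. The ALP libraries spanned 0.08 to 0.40 and the EILP libraries -0.22 to 0.13, while ILCp 1 to 5 stood at -0.29, -0.40, -0.27, -0.32 and -0.45. Every ILCp library was below every other library, and ALP and EILP overlapped, with EILP 1 lowest of its group. Batch means had been taken out of these values with groups kept, so the SDs and ranges leave out scatter between batches. The same median over the 7458 genes with a mean above 4 log2 CPM was 0.04 in ALP, 0.05 in EILP and -0.04 in ILCp.

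**Figure D1:**
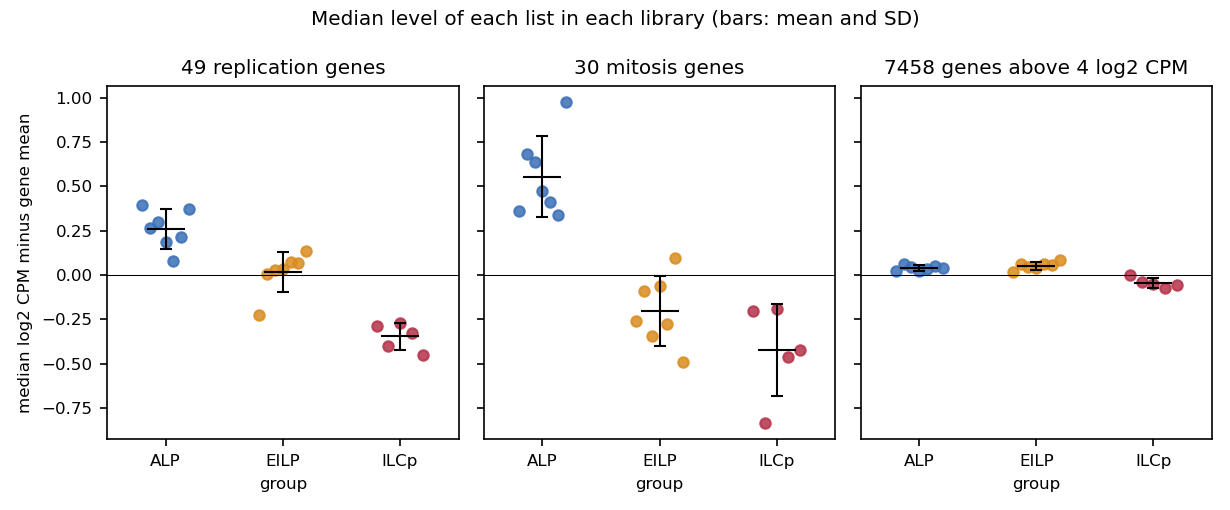
Median deviation from each gene's mean over 19 libraries (log2 CPM), for the 49 replication genes, 30 mitosis genes and 7458 genes above 4 log2 CPM, with 1 point per library and the mean and SD of each group as bars. For the replication genes the ILCp points lie between -0.45 and -0.27 and the other libraries above them.

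Between ILCp and ALP, 16 of the 49 members (32.7%) were called, all of them lower in ILCp. Over all genes 4.39% were called lower and 3.86% higher, and 7.44% and 5.39% among genes above 4 log2 CPM, a level that 48 members exceed. The median change of the members was -0.56, beside -0.03 for all genes, and 48 of 49 changes were negative. The called genes came from 7 of the 10 roles into which the list divides. They included 4 of the 6 MCM2-7 subunits, 3 of 6 clamp and loader genes and 3 of 5 nucleotide supply genes. The count fell to 8 without ALP 4 or without ILCp 2, to 9 when libraries were centred on their medians, and to 4 without batch 4, which leaves 2 ILCp libraries. The share of all genes called lower fell as well, from 4.39% to 3.15%, 2.34%, 3.14% and 2.5% in that order. The median change stayed between -0.64 and -0.43 in the alternatives tried, and within batches 1, 2 and 4 it was -0.69, -0.62 and -0.58, with 45, 39 and 46 of the 49 changes negative.

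Between ILCp and EILP, 4 members were called, each lower in ILCp: Mcm7, Gins1, Dut and E2f1. Over all genes 1.46% were called lower and 1.76% higher, and 2.96% and 2.78% of genes above 4 log2 CPM. The members' median change was -0.37, beside -0.08 for all genes, and 41 of 49 were negative. The unadjusted limma p was below 0.05 for 15 of the 49 members. It was below 0.05 for 3097 of all 18607 genes and 1895 of the 7458 above 4 log2 CPM. Leaving out 1 library gave 2 to 5 calls, with the lowest count without EILP 1, EILP 5 or ILCp 1. In those 3 fits 1.09%, 0.516% and 1.04% of all genes were called lower. None of the 4 was called when ALP was left out of the fit, where 0.322% of all genes were called lower. Within batches the members' median was -0.18, -0.36 and -0.46.

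Between EILP and ALP only the Gins2 change was called, lower in EILP. An unadjusted limma p below 0.05 was held by 9 of the 49 members, a share near the background. It was held by 3249 of all 18607 genes and by 1662 of the 7458 genes above 4 log2 CPM. Over all genes 2.79% were called lower and 2.25% higher, and 4.01% and 3.19% of genes above 4 log2 CPM, so the 2.04% of members called is near the background. The members' median change was -0.25, beside 0.00 for all genes, and 42 of 49 were negative. With each library centred on its median, which shifted all genes by 0.22, the median was -0.034 and 27 were negative. Leaving out 1 library gave 0 to 4 calls, with 4 without ALP 5, beside 2.31% of all genes lower. There were 0 when the library left out was ALP 1 to 3, ALP 6, ALP 7, EILP 1, EILP 2 or EILP 6. In those fits 2.15% to 2.56% of all genes were called lower. Within the 4 batches that hold both groups the members' median was -0.61, -0.29, -0.20 and -0.16.

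**Figure D2:**
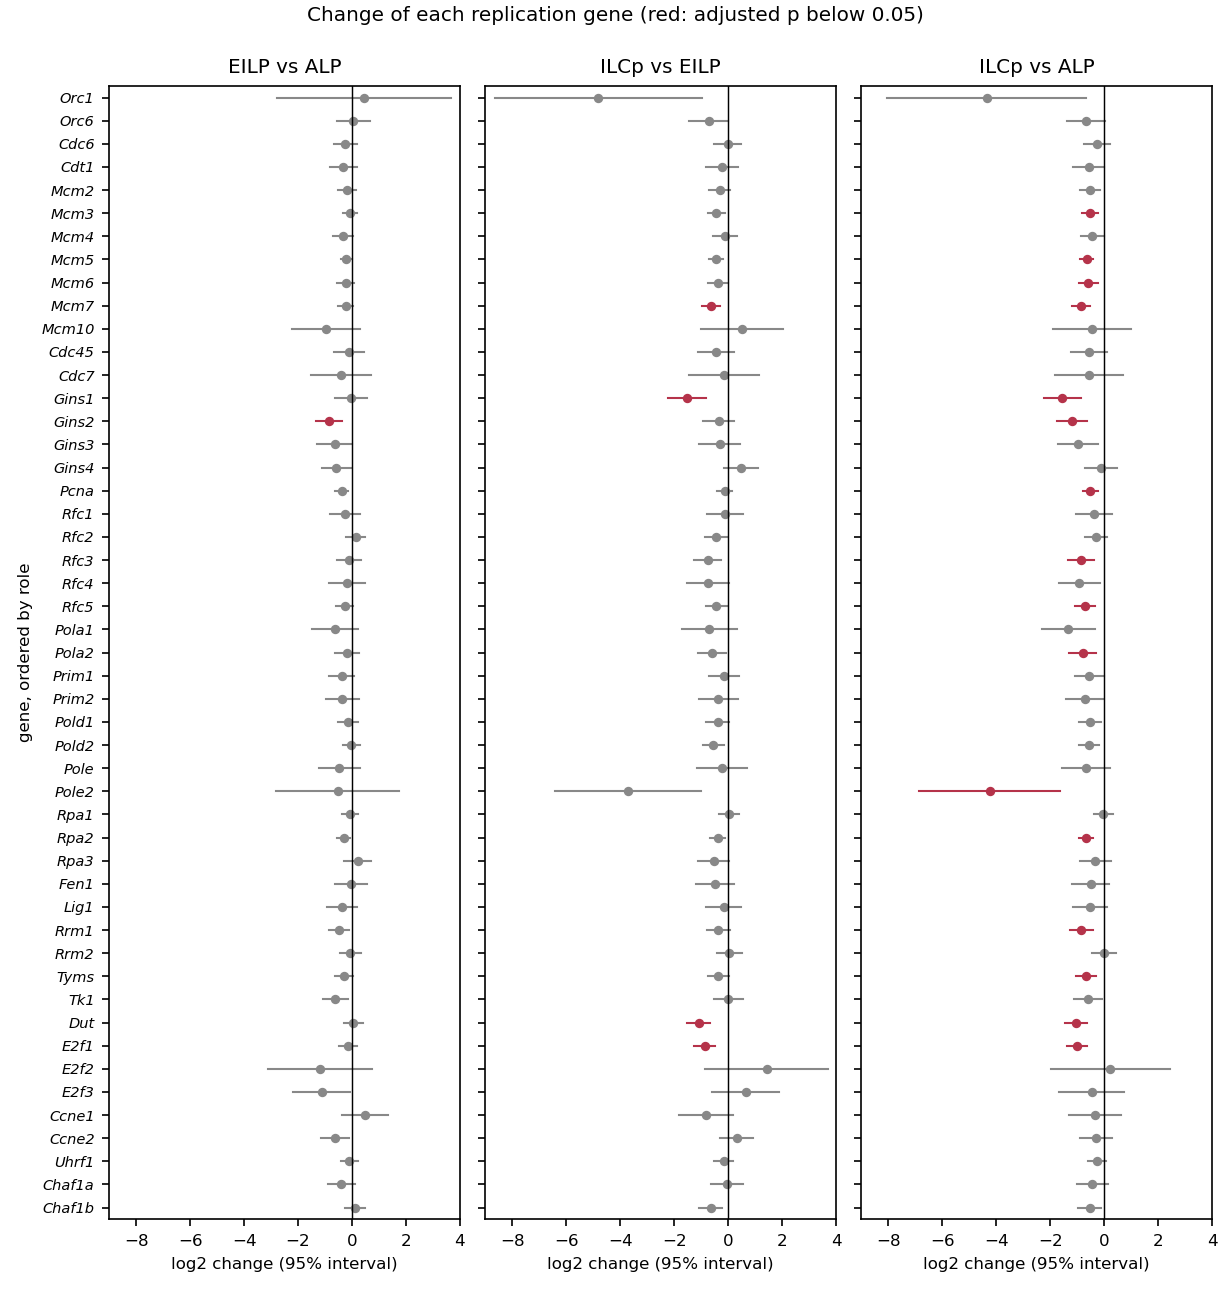
Log2 change of each of the 49 replication genes with its 95% interval, for EILP against ALP, ILCp against EILP and ILCp against ALP, with genes in rows by role. Red points are the 1, 4 and 16 genes called, all to the left of 0, and the intervals of Orc1 and Pole2 are the widest.

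Groups can also be compared by whether their libraries overlap. In ILCp against ALP all 5 ILCp libraries were below all 7 ALP libraries for 16 members, beside 4.96% of all genes. Of the 7458 genes above 4 log2 CPM, the level of most members, this held for 602. The 16 members left out the called Mcm3, Mcm6 and Tyms and held Pold2, Pole and Chaf1b, whose adjusted p in limma was 0.0556, 0.389 and 0.123. In ILCp against EILP all ILCp libraries were lower for 11 members, beside 5.34% of all genes and 702 of those 7458. In EILP against ALP all EILP libraries were lower only for Pcna, beside 2.38% and 296 of the 7458. For 0 members did all libraries of the later group lie above those of the earlier one, beside 2.36% of all genes in EILP against ALP, 3.35% in ILCp against EILP and 4.01% in ILCp against ALP.

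**Figure D3:**
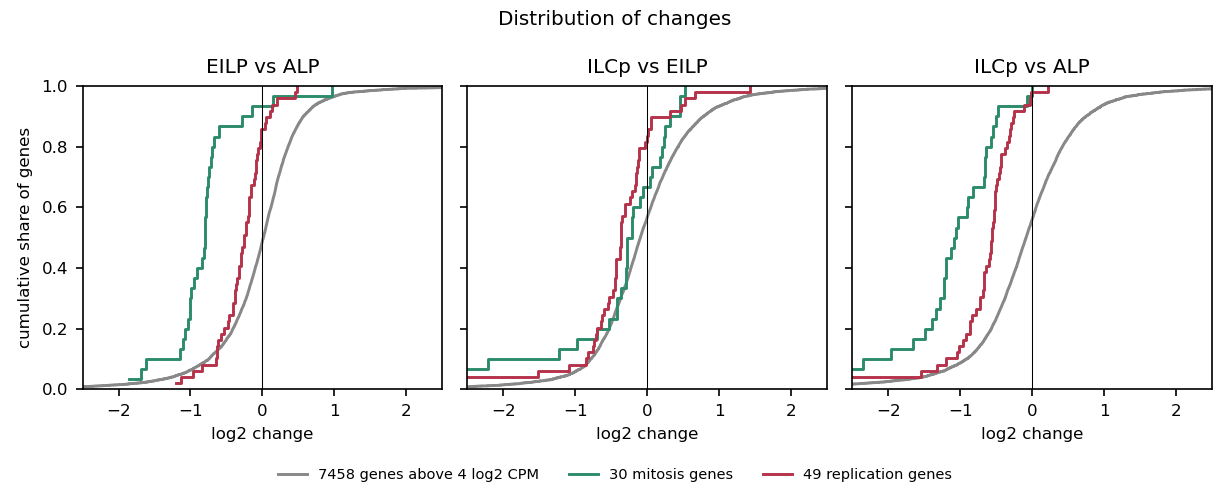
Cumulative share of genes by log2 change for 49 replication genes, 30 mitosis genes and 7458 genes above 4 log2 CPM, in 3 panels by comparison. The replication curve lies left of the curve of genes above 4 log2 CPM, except in the lower tail of the EILP against ALP panel, with medians of -0.25, -0.37 and -0.56, and changes beyond 2.5 fall outside the axis.

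Promoter letters were read for the members because E2F factors are among them and among their known regulators. RefSeq windows on GRCm38.p6 were matched by symbol for 41 of the 49 members, and the 250 bases before the start were searched on both strands. The E2F letters were TTCCCGC or a form with another middle pair, which is TTGGCGC when the pair is GG. The pair CG gives TTCGCGC. The pair GC gives TTGCCGC. These letters were present in 19 of 41 members (46.3%), beside 9.01% of 27025 genes with a window, 15.1% of the 11454 of these that are in the table and 12.0% of 25 mitosis genes. They were in 6 of the 14 called members with a window (42.9%) and in 13 of the 27 others (48.1%). The CCAAT box, searched as CCAAT, was in 61.0% of members, 37.5% of all genes and 72.0% of mitosis genes. The cell cycle homology region, searched as TTTGAA or TTCGAA, was in 24.4%, 19.6% and 36.0%. Matches of 1 motif on opposite strands, and an E2F and a homology region match that share letters, can overlap. A match is a description of letters and does not show that a factor binds.

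For the called members whose E2F match lies before the whole RefSeq gene, the stretch around the match nearest the start is given on the gene's own strand, 5′ to 3′, with the match in capitals. These 5 are shown as examples of a match and its surroundings, and were chosen because they hold one.
Mcm5, chr8:75109345-75109381, plus strand: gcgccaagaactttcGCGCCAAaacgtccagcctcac
Mcm6, chr1:128359727-128359763, minus strand: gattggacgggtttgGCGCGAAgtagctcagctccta
Rfc3, chr5:151651209-151651232, minus strand: gtgacgtcgcacgctTTCGCGCtc
Rpa2, chr4:132768308-132768344, plus strand: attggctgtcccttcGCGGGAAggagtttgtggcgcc
Rrm1, chr7:102441613-102441649, plus strand: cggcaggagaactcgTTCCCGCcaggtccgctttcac
The match began 149, 43, 9, 37 and 67 bases before the start used by each window. The Mcm5 window held 3 matches and the Mcm6 window 4, and each of the others held 1.

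**Figure D4:**
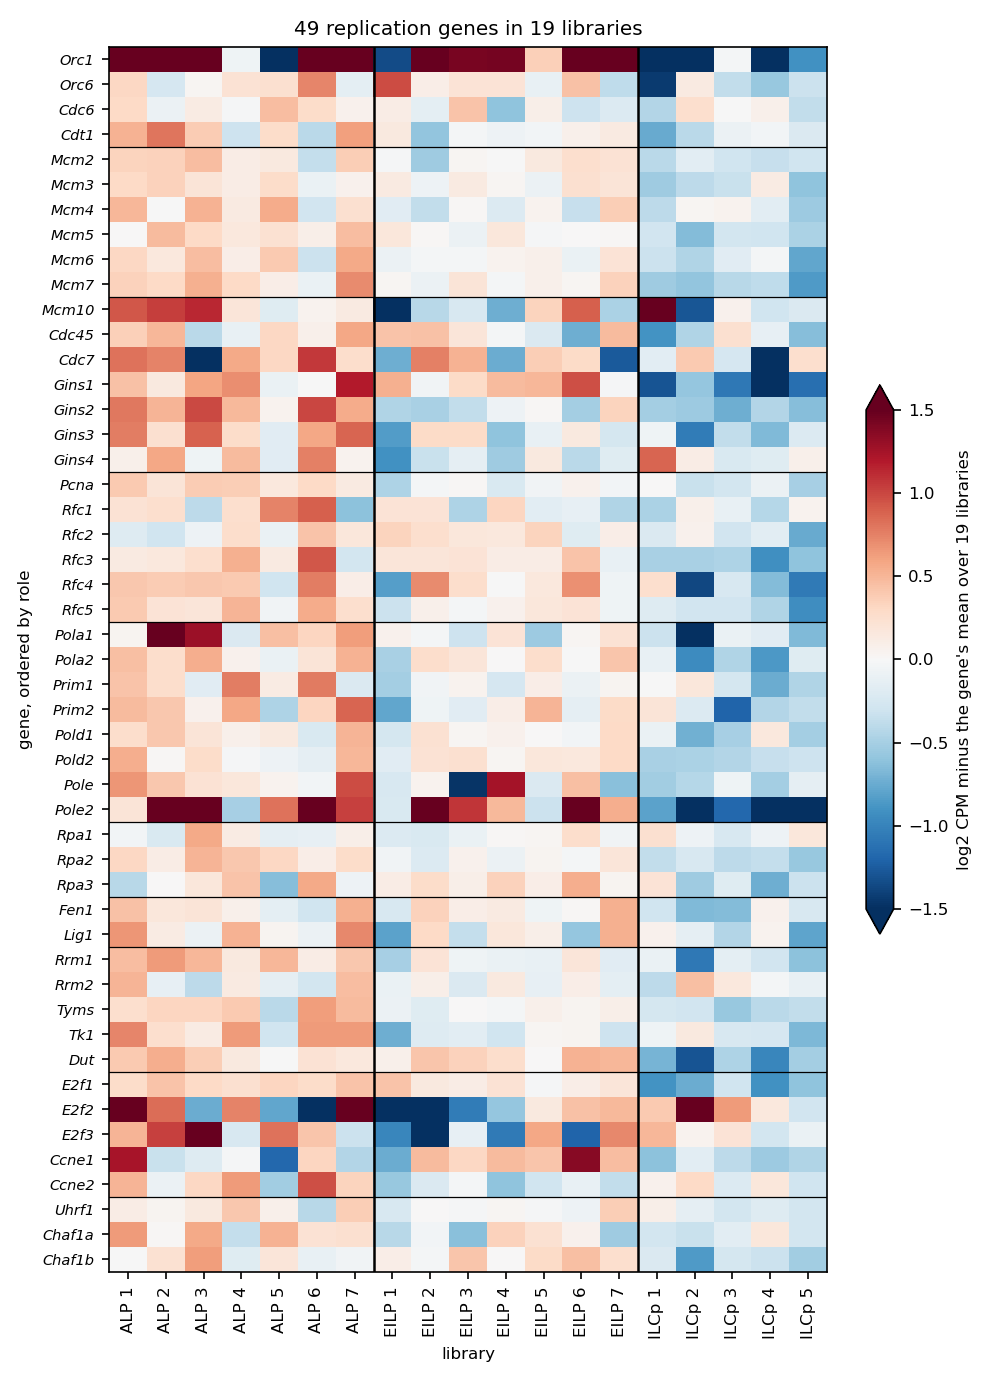
Level of each of the 49 replication genes (rows, by role) in each of the 19 libraries (columns), as log2 CPM minus the gene's mean, with the colour scale cut at 1.5 either way. ILCp columns are mostly blue and ALP columns mostly red, and Orc1, Pole2 and E2f2 vary most within groups.

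None of the 4 origin recognition and licensing genes was called in any comparison. Orc1 is the largest, ATP-binding subunit of the origin recognition complex. Its level ran from -1.22 to 5.82 with a median of 5.06 in ALP and from 1.74 to 5.98 with a median of 4.52 in EILP, and was 1.35, -4.04, 3.06, -3.97 and 2.18 in ILCp 1 to 5. ALP 5, ILCp 2 and ILCp 4 were below 0 log2 CPM, and ILCp overlapped both other groups. The log2 change from EILP to ILCp was -4.80 with an SE of 1.798 and a limma adjusted p of 0.176. Without ILCp 2 it was -2.90 (adjusted p 0.522), and leaving out each library in turn gave -5.98 (without EILP 1) to -2.90. Changes from ALP to ILCp for Orc6, the loader Cdc6 and the licensing factor Cdt1 were -0.68, -0.26 and -0.57.

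The MCM2-7 genes encode the ring that unwinds DNA, and all 6 changes were negative in all 3 comparisons, except that with each library centred on its median 3 of the 6 were positive in EILP against ALP. In ILCp against ALP, Mcm3, Mcm5, Mcm6 and Mcm7 were called, and the 6 changes lay between -0.86 and -0.44. Mcm7 (chr5:138164583-138172111, GRCm38.p6) ranged from 8.94 to 9.75 with a median of 9.34 log2 CPM in ALP and from 8.95 to 9.39 with a median of 9.07 in EILP. In ILCp 1 to 5 its levels were 8.51, 8.45, 8.62, 8.66 and 8.19. All ILCp libraries were below all of the other groups, and ILCp 5 was lowest. The level in ILCp was 54.9% of that in ALP (log2 change -0.86, SE 0.15, limma adjusted p 0.00194) and 64.5% of that in EILP (log2 change -0.63, adjusted p 0.0417). The call against EILP was lost without any 1 library other than ALP 6 or ALP 7, with an adjusted p from 0.0506 to 0.140, and the call against ALP was kept without each library in turn. Exons of Mcm7 overlap Cops6 and Ap4m1 on the other strand, and the library kit named does not mark strand. Cops6 differed from ALP to ILCp by 0.18 (limma adjusted p 0.548) and Ap4m1 by -3.95 (adjusted p 0.151).

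Mcm5 levels spanned from 9.09 to 9.55 with a median of 9.31 in ALP and from 8.99 to 9.25 with a median of 9.09 in EILP. ILCp 1 to 5 had 8.79, 8.43, 8.80, 8.78 and 8.61. The ILCp libraries lay below both other groups without overlap, with ILCp 2 lowest. Mcm5 fell from ALP to ILCp by a log2 change of -0.64 (SE 0.12, 95% interval -0.89 to -0.40, limma adjusted p 0.00221), and the call was kept without each library in turn. From EILP to ILCp the change was -0.44 with an adjusted p of 0.0610.

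Mcm3 ranged from 8.93 to 9.37 with a median of 9.22 in ALP and from 8.94 to 9.26 with a median of 9.16 in EILP, against 8.49, 8.63, 8.69, 9.14 and 8.42 in ILCp 1 to 5. ILCp 4 reached into both other groups and the remaining ILCp libraries did not. The log2 change from ALP to ILCp was -0.52 (SE 0.14, limma adjusted p 0.0308). Its adjusted p was between 0.0510 and 0.131 when any of ALP 1 to 4, EILP 3, EILP 4, ILCp 1 to 3 or ILCp 5 was left out. For Mcm6 the levels were from 9.71 to 10.60 with a median of 10.34 in ALP, from 9.93 to 10.24 with a median of 10.01 in EILP and 9.71, 9.58, 9.87, 10.003 and 9.26 in ILCp 1 to 5. ALP 6 was low for its group and overlapped ILCp, and ILCp 4 overlapped EILP. The change was -0.58 (SE 0.17, limma adjusted p 0.0446), and the call held only without ALP 6, EILP 7 or ILCp 4, the other 16 libraries giving 0.0536 to 0.196. Mcm2 and Mcm4, not called, changed from ALP to ILCp by -0.50 (adjusted p 0.0954) and -0.44 (adjusted p 0.236).

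GINS subunits and their partners switch the loaded ring into a moving helicase. The pair Gins1 and Gins2 gave the changes of this role that were called. Gins1 (PSF1) had levels from 5.18 to 6.46 with a median of 5.71 in ALP and from 5.23 to 6.25 with a median of 5.76 in EILP. In ILCp 1 to 5 it stood at 3.99, 4.69, 4.20, 3.72 and 4.15. No ILCp library reached the lowest library of the other groups, and ILCp 4 was lowest. Gins1 in ILCp was 34.1% of the ALP level (log2 change -1.55, SE 0.32, limma adjusted p 0.00594) and 35.05% of the EILP level (log2 change -1.51, SE 0.33, adjusted p 0.0217). ALP and EILP differed by -0.04 with a 95% interval of -0.63 to 0.56. The call against EILP was lost without EILP 1, EILP 5 or ILCp 1 (adjusted p 0.0548, 0.0925 and 0.0653).

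Gins2 (PSF2) showed the 1 member change called between ALP and EILP. Its levels were from 5.42 to 6.36 with a median of 5.92 in ALP and from 4.86 to 5.70 with a median of 4.998 in EILP, and 4.86, 4.82, 4.64, 4.93 and 4.73 in ILCp 1 to 5. EILP 7 lay above the lowest ALP library, ALP 5, and the ILCp libraries were all below ALP. Gins2 in EILP was 55.7% of the ALP level (log2 change -0.85, SE 0.23, limma adjusted p 0.0420). That call was lost when any of ALP 1 to 3, ALP 6, ALP 7, EILP 1, EILP 2 or EILP 6 was left out, with an adjusted p from 0.0532 to 0.121. In ILCp the level was 43.6% of ALP (log2 change -1.20, SE 0.26, adjusted p 0.00830), a call kept without each library in turn. Exons of Gins2 overlap Gse1 on the other strand, which rose from ALP to EILP by 3.35 (limma adjusted p 0.000177) and to ILCp by 2.72 (adjusted p 0.00256).

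Gins3 and Gins4 complete the complex and were not called. Their changes from ALP to ILCp were -0.96 (limma adjusted p 0.112) and -0.11 (0.883). Gins4 was 0.47 higher in ILCp than in EILP, with an adjusted p of 0.456, so the 4 subunits did not share a direction there. The Cdc45 component of the helicase, the origin kinase Cdc7 and the initiation factor Mcm10 had changes of -0.56, -0.56 and -0.44 from ALP to ILCp, with SEs of 0.31, 0.59 and 0.69.

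**Figure D5:**
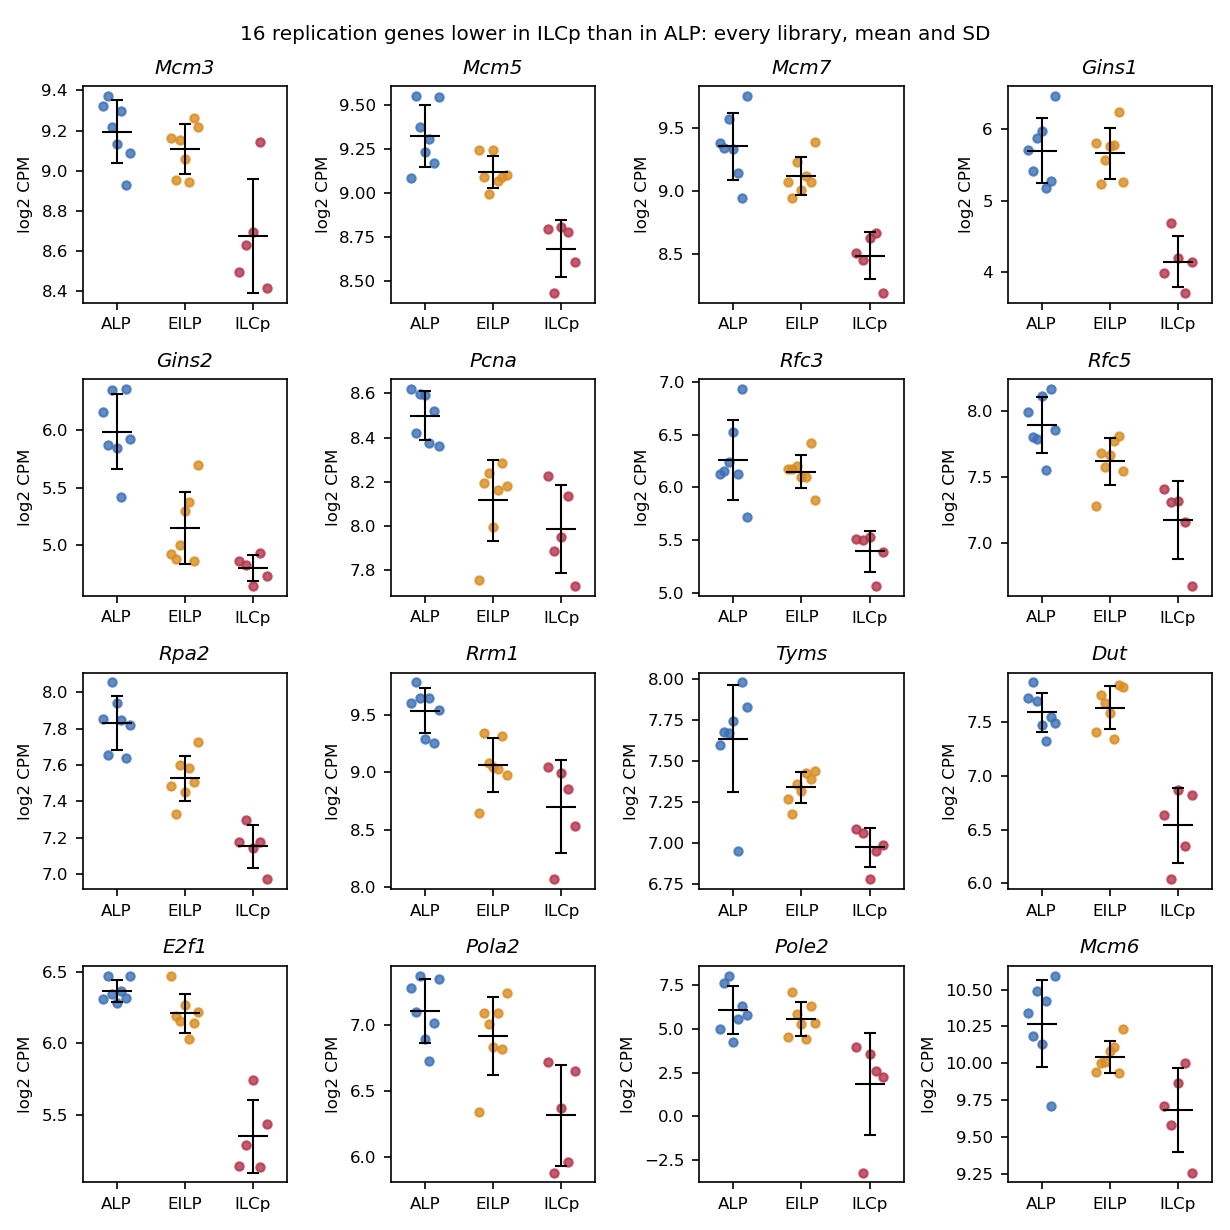
Level in log2 CPM of the 16 replication genes called lower in ILCp than in ALP, with 1 point per library, the mean and the SD of each group, and axes that do not start at 0 and differ between panels. ILCp points lie below all ALP points for 13 of the 16, and Mcm3, Mcm6 and Tyms overlap.

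Pcna, the sliding clamp that holds polymerases on DNA, ranged from 8.36 to 8.62 with a median of 8.52 in ALP and from 7.75 to 8.29 with a median of 8.18 in EILP. ILCp 1 to 5 were at 8.23, 7.89, 7.95, 8.14 and 7.73. Both later groups were below every ALP library and overlapped each other, with EILP 1 and ILCp 5 lowest. Pcna in ILCp was 70.1% of ALP (log2 change -0.51, SE 0.13, limma adjusted p 0.0257). In EILP it was 76.8% of ALP, with an adjusted p of 0.0800 that missed the threshold. Without ALP 1, ALP 3, ALP 4 or ILCp 2 the adjusted p for ILCp against ALP was 0.0716, 0.0510, 0.107 and 0.129. The processed pseudogene Pcna-ps2, a near copy that can share reads, changed by -0.78 (adjusted p 0.447).

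The RFC complex opens the clamp and closes it around DNA. Rfc3 levels were from 5.72 to 6.93 with a median of 6.15 in ALP and from 5.88 to 6.42 with a median of 6.17 in EILP, and 5.51, 5.50, 5.53, 5.07 and 5.39 in ILCp 1 to 5. ILCp was below both other groups without overlap, and ILCp 4 was lowest. The change from ALP to ILCp was -0.86 (SE 0.23, limma adjusted p 0.0300), and it was not called without ALP 4 (adjusted p 0.128) or ILCp 2 (0.0672). Rfc5 ranged from 7.55 to 8.16 with a median of 7.85 in ALP and from 7.28 to 7.81 with a median of 7.66 in EILP, with 7.41, 7.31, 7.32, 7.16 and 6.67 in ILCp 1 to 5. All ILCp libraries were below ALP, ILCp 5 by the most, while ILCp and EILP overlapped. Rfc5 changed by -0.72 (SE 0.18, adjusted p 0.0178), which was lost without ALP 1 (0.0518) or ALP 4 (0.101). Its exons overlap Wsb2 on the other strand, which differed by 0.13 (adjusted p 0.979). Rfc1, Rfc2 and Rfc4 were not called, at -0.37, -0.30 and -0.92.

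All 8 polymerase and primase genes had negative changes in each comparison, except that in EILP against ALP 3 were positive with median centring and 1 with quantile normalization. From ALP to ILCp 2 were called. Pola2, the accessory subunit of the priming polymerase alpha, had levels from 6.72 to 7.37 with a median of 7.10 in ALP, from 6.34 to 7.24 with a median of 7.01 in EILP and 6.72, 5.88, 6.37, 5.97 and 6.65 in ILCp 1 to 5. ILCp 1 lay under the lowest ALP library by less than the digits printed, and ILCp overlapped EILP. The change was -0.79 (SE 0.23, limma adjusted p 0.0498) and was called without ALP 5, EILP 1, EILP 7, ILCp 1 or ILCp 5 only, the other 14 libraries giving 0.0554 to 0.284.

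Pole2, the second subunit of the leading-strand polymerase epsilon, had the lowest log2 change of the called members. It ranged from 4.27 to 8.03 with a median of 5.79 in ALP and from 4.44 to 7.12 with a median of 5.31 in EILP, and ILCp 1 to 5 had 3.96, -3.20, 3.58, 2.57 and 2.26. Every ILCp library was below the other groups, and ILCp 2 stood far under the other four. The change was -4.24 (SE 1.23, 95% interval -6.85 to -1.63, limma adjusted p 0.0439). Without ILCp 2 it was -1.40 (adjusted p 0.0530), and only without EILP 2, ILCp 1 or ILCp 3 did the call remain, the other 16 libraries giving 0.0505 to 0.0970. The annotation places another gene, Gm49384, on the same strand over exons of Pole2, and reads of that pair may have been split. The catalytic subunits Pola1, Pold1 and Pole changed by -1.33, -0.53 and -0.68 (limma adjusted p 0.0974, 0.119 and 0.389). The primase subunits Prim1 and Prim2 and the polymerase delta subunit Pold2 were at -0.54, -0.73 and -0.57.

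RPA coats the exposed single strand. Rpa2, its middle subunit, had levels from 7.64 to 8.05 with a median of 7.85 in ALP, from 7.33 to 7.73 with a median of 7.51 in EILP and 7.18, 7.30, 7.14, 7.18 and 6.97 in ILCp 1 to 5. The ILCp libraries were below all of the others, and EILP overlapped ALP. In ILCp the level was 62.6% of ALP (log2 change -0.67, SE 0.13, limma adjusted p 0.00299), kept without each library in turn. The large subunit Rpa1 changed by -0.03 with a 95% interval of -0.38 to 0.32, and the small subunit Rpa3 by -0.32 with -0.88 to 0.24. The interval of Rpa1 does not overlap that of Rpa2, although the difference between the subunits was not tested.

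The lagging-strand genes were not called. Lig1, the ligase that seals Okazaki fragments, ranged from 7.19 to 7.99 with a median of 7.39 in ALP and from 6.47 to 7.80 with a median of 7.36 in EILP, with 7.33, 7.14, 6.83, 7.32 and 6.48 in ILCp 1 to 5. All groups overlapped, and the change from ALP to ILCp was -0.52 (SE 0.30, limma adjusted p 0.347). The flap endonuclease Fen1 changed by -0.49 (adjusted p 0.419).

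Among the nucleotide supply genes Rrm1, Tyms and Dut were called. Dut, the enzyme that removes dUTP so that uracil stays out of DNA, ranged from 7.33 to 7.87 with a median of 7.55 in ALP and from 7.34 to 7.85 with a median of 7.68 in EILP. ILCp 1 to 5 had 6.63, 6.04, 6.87, 6.35 and 6.82. ALP and EILP had nearly the same range, and all ILCp libraries were below it, with ILCp 2 lowest. Dut in ILCp was 48.3% of ALP (log2 change -1.05, SE 0.19, limma adjusted p 0.00226) and 46.8% of EILP (-1.09, SE 0.20, adjusted p 0.00709). Between ALP and EILP it differed by 0.04, with a 95% interval of -0.31 to 0.40. The call against ALP was kept in all 17 alternatives and without each library in turn.

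Rrm1 is the large subunit of ribonucleotide reductase, which makes deoxynucleotides. Levels were from 9.26 to 9.78 with a median of 9.61 in ALP, from 8.65 to 9.34 with a median of 9.05 in EILP and 9.05, 8.07, 8.998, 8.86 and 8.53 in ILCp 1 to 5. ILCp was below ALP throughout, overlapped EILP, and had its lowest value in ILCp 2. Rrm1 in ILCp was 55.96% of ALP (log2 change -0.84, SE 0.20, limma adjusted p 0.0139), and without ILCp 2 the adjusted p was 0.107. Rrm2, the small subunit, had means of 8.24, 8.18 and 8.23 in ALP, EILP and ILCp, with a change from ALP to ILCp of -0.01 (95% interval -0.45 to 0.43).

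Tyms, thymidylate synthase, ranged from 6.95 to 7.98 with a median of 7.67 in ALP and from 7.17 to 7.44 with a median of 7.36 in EILP, with 7.08, 7.06, 6.78, 6.95 and 6.99 in ILCp 1 to 5. ALP 5 was far below its group and overlapped ILCp, and ILCp and EILP did not overlap. The change from ALP to ILCp was -0.66 (SE 0.17, limma adjusted p 0.0274), and without ALP 1, ALP 4, EILP 5 or ILCp 2 the adjusted p was 0.0517, 0.108, 0.0537 and 0.0655. The annotation lists a processed pseudogene, Tyms-ps, that could share its reads. Tk1, the thymidine salvage kinase, was not called, at -0.62 from ALP to EILP and 0.02 from EILP to ILCp (limma adjusted p 0.129 and 0.993).

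E2F factors and cyclin E start S phase. E2f1 (chr2:154559400-154569892, GRCm38.p6) ranged from 6.28 to 6.47 with a median of 6.34 in ALP and from 6.03 to 6.47 with a median of 6.19 in EILP. ILCp 1 to 5 were at 5.15, 5.29, 5.75, 5.14 and 5.44. The highest ILCp library, ILCp 3, was below the lowest EILP library, and ALP libraries lay close together. E2f1 in ILCp was 49.5% of ALP (log2 change -1.01, SE 0.18, limma adjusted p 0.00156), the smallest p among the members, and 55.2% of EILP (log2 change -0.86, SE 0.18, adjusted p 0.0178). The change from ALP to EILP was -0.16 (adjusted p 0.640). As with Dut, the call against ALP was kept in all 17 alternatives and without each library in turn.

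The other activating E2F genes varied widely. E2f2 ran from 1.84 to 7.27 with a median of 4.76 in ALP and from 0.56 to 4.50 with a median of 3.43 in EILP, with 4.41, 6.17, 4.66, 4.17 and 3.73 in ILCp 1 to 5. The groups overlapped throughout, and its 0.22 was the 1 positive member change from ALP to ILCp (95% interval -1.98 to 2.43). E2f3 changed by -0.46, Ccne1 by -0.35 and Ccne2 by -0.30 from ALP to ILCp, with limma adjusted p of 0.719, 0.742 and 0.616.

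Replication-coupled chromatin genes were not called. Chaf1b, a subunit of the CAF-1 chaperone that places histones on new DNA, ranged from 6.57 to 7.37 with a median of 6.75 in ALP and from 6.72 to 7.20 with a median of 6.997 in EILP, and was 6.53, 5.90, 6.48, 6.42 and 6.23 in ILCp 1 to 5. ILCp lay below both other groups without overlap. Its change from EILP to ILCp was -0.65 (SE 0.21, limma adjusted p 0.109). Chaf1a and the maintenance methylation factor Uhrf1 changed by -0.44 and -0.26 from ALP to ILCp.

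The 2 reporters among the ILCp libraries were compared directly. No member was called between Plzf-cre-GFP and Tcf7EGFP libraries, where 0.0107% of all genes were called lower and 0.0645% higher. In that limma fit 1 member, Rfc5, had an unadjusted p below 0.05, and the members' median change was -0.11. The 2 Plzf-cre-GFP libraries share a batch, and the smallest adjusted p of a member was 1. Without them 8 members were called lower from ALP to ILCp, beside 2.82% of all genes, with a median of -0.56. With all 19 libraries it was 16 members, beside 4.39% of all genes.

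Genes of the same processes outside the 49 were described from 4 further lists of 72 genes. From ALP to ILCp 14 (19.4%) were called lower and 3 higher, beside 4.39% and 3.86% of all genes, with a median change of -0.33. From EILP to ILCp 5 (6.94%) were lower and 1 higher, beside 1.46% and 1.76%, with a median of -0.32. From ALP to EILP 3 (4.17%) were lower and 1 higher, beside 2.79% and 2.25%, which is near the background, with a median of -0.13.

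Of 32 other replication factors, 8 were called lower and 1 higher from ALP to ILCp. Pclaf, which binds PCNA, changed by -1.13 (SE 0.17, limma adjusted p 0.000481) and Topbp1, an initiation and checkpoint scaffold, by -1.13 (SE 0.18, adjusted p 0.000807). Dscc1, part of the alternative clamp loader, changed by -2.23 (adjusted p 0.0171). Top2b, the topoisomerase II form also present in resting cells, rose by 0.84 (adjusted p 0.00971). Pclaf (-0.84) and Top2a (-0.67), the form of dividing cells, were the 2 called lower from ALP to EILP, and Rnaseh2b (-1.07) the 1 from EILP to ILCp.

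Of 16 other nucleotide metabolism genes, 3 were called lower from ALP to ILCp: Paics (-0.87, limma adjusted p 0.000665), Shmt1 (-0.92) and Umps (-0.71), enzymes of purine, folate and pyrimidine synthesis. From EILP to ILCp 4 were lower: Nme1 (-0.73), Impdh2 (-0.60), Gmps (-0.67) and Paics (-0.54). Nme1, a nucleoside diphosphate kinase, was the 1 called higher from ALP to EILP, at 0.66.

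Of 14 other E2F and retinoblastoma pathway genes, 2 rose and 2 fell from ALP to ILCp. Rb1, the retinoblastoma protein that restrains E2F, rose from 4.77 ± 0.57 (SD, n = 7) log2 CPM in ALP to 6.53 ± 0.29 (n = 5) in ILCp, a change of 1.76 (limma adjusted p 0.0139). Rbl2 (p130), the relative bound to E2F in resting cells, rose by 1.70 from ALP (adjusted p 0.00394) and by 1.38 from EILP (adjusted p 0.0387). Rbl1 (p107), the relative present in cycling cells, fell by 0.96 from ALP to ILCp (adjusted p 0.00252) and by 0.75 from ALP to EILP (adjusted p 0.00758). Tfdp1, the partner with which E2F binds DNA, changed by -0.57 (adjusted p 0.0257). Of 10 other replication chromatin genes 1 was called from ALP to ILCp, the FACT subunit Ssrp1 at -0.53 (adjusted p 0.0106).

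Mitosis genes are the other transcripts that mark dividing cells. Of 30 mitosis genes 10 (33.3%) were called lower from ALP to EILP, beside 2.79% of all genes, with a median change of -0.80, where 1 of 49 replication genes was called. The 4 with the smallest p were Bub1b (-1.86), Prc1 (-0.84), Nusap1 (-1.11) and Cdk1 (-0.80). From EILP to ILCp limma called 0 mitosis genes, beside 1.46% of all genes lower and 1.76% higher. Their median was -0.25, where 4 replication genes were called with a median of -0.37. In limma the unadjusted p was below 0.05 there for 4 of the 30 mitosis genes, beside 3097 of all 18607 genes. From ALP to ILCp 13 mitosis genes (43.3%) were lower, beside 4.39% of all genes, with a median of -1.07, led by Cdk1 (-1.22), Cdc20 (-1.06), Nusap1 (-1.39) and Bub1b (-1.65). Set against each gene's mean, the median over mitosis genes was 0.55 ± 0.23 (SD, n = 7) in ALP, -0.20 ± 0.20 in EILP and -0.42 ± 0.26 (n = 5) in ILCp. By this median, EILP and ILCp libraries overlapped for mitosis genes and not for replication genes. The difference between the lists was not tested.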

How the data were processed

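Bulk RNA-seq of 19 sorted populations was used as deposited: log2 CPM values for 18607 genes by library. Per the labels' protocols, the kits were RNeasy plus micro for RNA and, for libraries, SMARTer Ultra Low Input v3 followed by Nextera XT. Libraries of this kind carry no strand mark. The submitters' processing notes name bcl2fastq 1.8.4, STAR 2.4.0h, edgeR, limma and mm10, with no order given. In the deposited log2 values the largest batch coefficient beside the groups was 1.84e-08, against 6.01 for batch alone, so batch means had been taken out with groups kept. Back-transformed, the CPM values deposited by the authors sum to 908573 to 1035204 per library. No depth, interval for counts or detection floor could be computed.

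Groups came from the labels. limma 3.58.1 in R 4.3.3 was fitted with a mean-variance trend over all genes, with group and batch as terms, all 19 libraries, 12 residual degrees of freedom, no pseudocount and no filter on low values; all 49 members pass a mean of 2 log2 CPM. Because batch had been removed already, keeping the term does not move the group estimates. It lowers the degrees of freedom by those that the removal had used. The fit was also run on simulated data with independent normal noise, and recovery at the size of the members' changes is not given here. Tested alternatives covered the batch term, scaling, filters, variance model and left-out libraries. The members, lists and tests were chosen with earlier results of these data known. Text names all members called in any comparison, the member of smallest p in each role, and up to 4 called genes per further list. Pcna-ps2, overlapping genes and Gm49384 come from the GENCODE annotation of the assembly. A replicate number was shared by 17 pairs of libraries across groups, whose deviations from group means correlated from -0.637 to 0.120, with 1 over 0.1. With batch means taken out, deviations cancel within a batch, which pushes pairs that share a batch towards negative values. The correlations therefore cannot show whether numbers mark pairs. No label gives them as pairs, and they were not taken as such.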

Additional observations from a re-analysis of the deposited data

Results flagged for a closer look

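A library was picked out here when its gap to the nearest library of its group, over the group's range, passed Dixon's 95% value. This was applied to each of the 49 members and to their median in the 3 groups, 150 groups of values in all, of which 9 passed; chance passes about 1 in 20 groups.

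In ILCp, Pole2 stood at -3.20 log2 CPM in ILCp 2 where the next library was at 2.26, and Pola1 at 4.12 in the same library with the next at 5.91. In ALP, Orc1 was at -1.22 in ALP 5 (next 3.03), Tyms at 6.95 in ALP 5 (next 7.60), Mcm2 at 8.38 in ALP 6 (next 8.85) and Cdc7 at 3.66 in ALP 3 (next 5.60). In EILP, EILP 2 was low for Cdt1 at 5.90 (next 6.41) and Mcm2 at 8.21 (next 8.72). The members' median deviation in EILP 1 was -0.22, with the next EILP library at 0.01. Each of these libraries was low rather than high.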

How the results depend on the processing

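The members' median change stayed negative in each comparison under the alternatives tried, and depth limits could not be computed. The counts of members called lower are given in the order EILP against ALP, ILCp against EILP and ILCp against ALP, with 1, 4 and 16 as reported. Percentages in brackets are the shares of all genes called lower in the same fit, with 2.79%, 1.46% and 4.39% as reported. Without the batch term the counts were 6, 15 and 26 (6.89%, 9.18% and 11.7%). With batch as a random effect (consensus correlation -0.24) they were 9, 28 and 44 (9.05%, 24.6% and 33.4%). In that fit 4 members were called higher in ILCp than in EILP, beside 3625 of all 18607 genes. The replicate block in place of batch gave 2, 10 and 20 (4.63%, 4.12% and 6.9%). Fits of only the groups compared, which hold fewer libraries, gave 0, 0 and 7 (2.45%, 0.322% and 1.92%). Only the batches with both groups gave 1, 1 and 9 (2.47%, 0.441% and 2.14%). Without the Plzf-cre-GFP libraries the counts were 0, 2 and 8 (2.42%, 0.666% and 2.82%). Without batch 4 they were 0, 2 and 4 (1.6%, 0.844% and 2.5%). Without ALP 7 and EILP 2 together they were 0, 4 and 14 (2.05%, 0.607% and 4.35%). Batch 5 alone gave 0 for EILP against ALP (0.951%). Quantile normalization gave 0, 4 and 13 (2.59%, 1.51% and 4.09%). Median centring gave 0, 5 and 9 with medians of -0.034 and -0.43 for EILP and ILCp against ALP, and left 27 of 49 changes negative in EILP against ALP in place of 42; over all genes it turned 520 lower and 419 higher calls in EILP against ALP into 395 and 804, 271 and 327 in ILCp against EILP into 390 and 279, and 816 and 718 in ILCp against ALP into 584 and 813. Centring on genes above 4 log2 CPM, chosen after seeing the data, gave 1, 3 and 13 (2.71%, 1.27% and 3.91%). limma without trend gave 0, 3 and 6 (2.18%, 0.559% and 2.78%). A log2 change of at least 1 gave 0, 2 and 5 (2.3%, 0.844% and 3.21%). Leaving out 1 library gave 0 to 4, 2 to 5 and 8 to 16 (2.09% to 2.91%, 0.516% to 1.66% and 2.34% to 4.58%). Members' medians then ran from -0.27 to -0.20, -0.41 to -0.32 and -0.64 to -0.49, with 0 called higher. Batch means had been taken out of the values beforehand. Fits without the batch term, with batch as a random effect or with the replicate block leave out the degrees of freedom this used. The removal also pushes the correlation within a batch towards negative values. The larger counts of these fits therefore cannot be read as stronger results. The cause of the other shifts was not tested. In ILCp against ALP 45 to 49 of the 49 changes were negative throughout.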
